A study of Homo sapiens with 6 samples.

Results

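A set of 50 genes of mitosis and the G2/M transition was examined in the human breast cancer line MDA-MB-231, an established line of the triple-negative class, in which adenoviruses delivered either ADAR1 p110 or enhanced green fluorescent protein (GFP). The 50 genes were chosen by symbol from a list of mitotic functions. No threshold on their values was used, but earlier results of these data were known. Each gene matched 1 row among the 60461 genes of the count table. All 50 passed the low-count filter that left 18899 tested genes, with between 1250 and 100860 counts in any library. Each group held 3 libraries of the same cell line, one group transduced with a virus coding for ADAR1 p110 and the other with an eGFP control virus. Both viruses were used at a multiplicity of infection of 200, medium was changed at 16 h and RNA was taken at 48 h, so every library came from cells carrying an adenovirus, and cells without virus were not analysed here. The replicates are labelled biological, but nothing says how the cultures were kept apart, so a p-value reflects only how far these libraries varied, which may be technical.

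ADAR1 edits RNA duplexes by turning adenosines into inosines, and the p110 form is made constitutively and found mainly in the nucleus. Mitosis is driven by cyclin-dependent kinase 1 bound to A and B type cyclins. Its genes are transcribed late in the cell cycle, when the MuvB complex, together with B-MYB and FOXM1, activates promoters that carry a cell cycle homology region (CHR) and CCAAT boxes, the latter bound by NF-Y. The same genes are repressed in resting cells by the DREAM complex through the CHR, and in tumours their transcripts are widely used as a measure of proliferation.

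Promoters are shown first because CHR and CCAAT letters were found in many of the members, although not in all of them. RefSeq promoter sequences on GRCh38.p14, from 250 bases before to 50 bases after a listed start, were matched for 44 of the 50 genes. The CHR was searched as TTTGAA or TTCGAA and the CCAAT box as CCAAT, each on both strands. Other forms of the CHR were not searched, so a gene without a match may still hold one. A CHR and a CCAAT match shared letters in 2 of the 54 listed promoters of the members. A CHR match was found for 34 of the 44 genes (77.3%), against 19.5% of all 27305 genes in the table of promoters and 15.9% of the 11240 of them that were tested here. A CCAAT match was found for 35 (79.5%), against 39.7% of all genes, and both motifs for 29 (65.9%), against 7.85%. Of 51 CHR matches in the 54 listed promoters of the members, 35 (68.6%) began within 50 bases of the start, against 27.3% of the 2255 matches in promoters of tested genes. Promoters of the same gene can overlap, as for CDC25C and ECT2, so a site can be counted more than once. A match is a description of letters and does not show that a factor was bound.

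The stretches printed here run from 120 bases before to 20 bases after the start for the 4 members that passed the test between the groups and for CCNB2, a member that carried several CCAAT boxes and a CHR. Each is written 5′ to 3′ on the strand of the gene, with every CHR and CCAAT match of either strand in capitals. Their positions on GRCh38.p14 are chr16:23678769-23678908 on the plus strand for PLK1, chr5:138178992-138179131 on the plus strand for KIF20A, chr7:36389742-36389881 on the plus strand for ANLN, chr2:112764590-112764729 on the minus strand for CKAP2L and chr15:59105026-59105165 on the plus strand for CCNB2.
PLK1: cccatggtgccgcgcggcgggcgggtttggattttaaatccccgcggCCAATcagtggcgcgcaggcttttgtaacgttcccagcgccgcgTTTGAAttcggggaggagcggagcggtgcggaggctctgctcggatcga
KIF20A: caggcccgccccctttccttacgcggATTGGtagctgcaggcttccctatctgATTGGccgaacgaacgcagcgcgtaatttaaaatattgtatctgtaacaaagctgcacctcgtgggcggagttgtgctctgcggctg
ANLN: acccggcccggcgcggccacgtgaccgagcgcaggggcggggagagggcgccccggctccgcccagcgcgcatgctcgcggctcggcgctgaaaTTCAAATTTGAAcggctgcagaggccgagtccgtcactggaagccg
CKAP2L: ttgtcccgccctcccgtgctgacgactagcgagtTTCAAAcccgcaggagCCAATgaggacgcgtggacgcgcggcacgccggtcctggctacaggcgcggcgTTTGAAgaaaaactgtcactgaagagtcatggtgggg
CCNB2: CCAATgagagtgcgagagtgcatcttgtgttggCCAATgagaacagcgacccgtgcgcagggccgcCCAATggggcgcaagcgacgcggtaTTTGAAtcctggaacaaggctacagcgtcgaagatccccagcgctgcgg
PLK1 and CCNB2 both had the CHR beginning 29 bases before the start, downstream of the CCAAT letters. ANLN carried 2 adjoining CHR matches on opposite strands and no CCAAT match in the full window. KIF20A carried 2 CCAAT matches on the opposite strand and neither TTTGAA nor TTCGAA. CKAP2L, the member that fell, held both motifs. Across members with a promoter, the median log2 fold change between ADAR1 p110 and GFP was 0.14 for the 34 with a CHR match. It was 0.11 for the 10 with neither of the searched forms.

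Most mitotic transcripts lay slightly above their GFP level in the ADAR1 p110 libraries. The estimate was positive for 48 of 50 members, against 9677 of the 18899 tested genes. The median log2 fold change of the members was 0.13 (1.09-fold), against 0.00 over all tested genes. In 31 of 50 members every ADAR1 p110 library lay above every GFP library, where 11.8% of all tested genes did so, and in 1 member every library lay below (12.2% of tested genes). The differences were small, and only 3 members, PLK1, KIF20A and ANLN, rose past the test (quasi-likelihood test of edgeR, with p adjusted by Benjamini-Hochberg over all tested genes and a threshold of 0.05), or 3 of 50 where 1.95% of tested genes rose. CKAP2L alone fell, where 2.96% of tested genes fell. At an unadjusted p under 0.05, 28 members were higher and 1 was lower, against 9.21% and 9.43% of tested genes. The members were abundant, with a median of 153 CPM against 10.2 CPM over all tested genes. Of tested genes 92.6% lay below the member median. Higher counts make small differences easier to detect, and shares among tested genes of like abundance were not computed. In RNA from whole cultures, more cells in G2 and mitosis cannot be told apart from more RNA of these genes per cell.

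**Figure D1:**
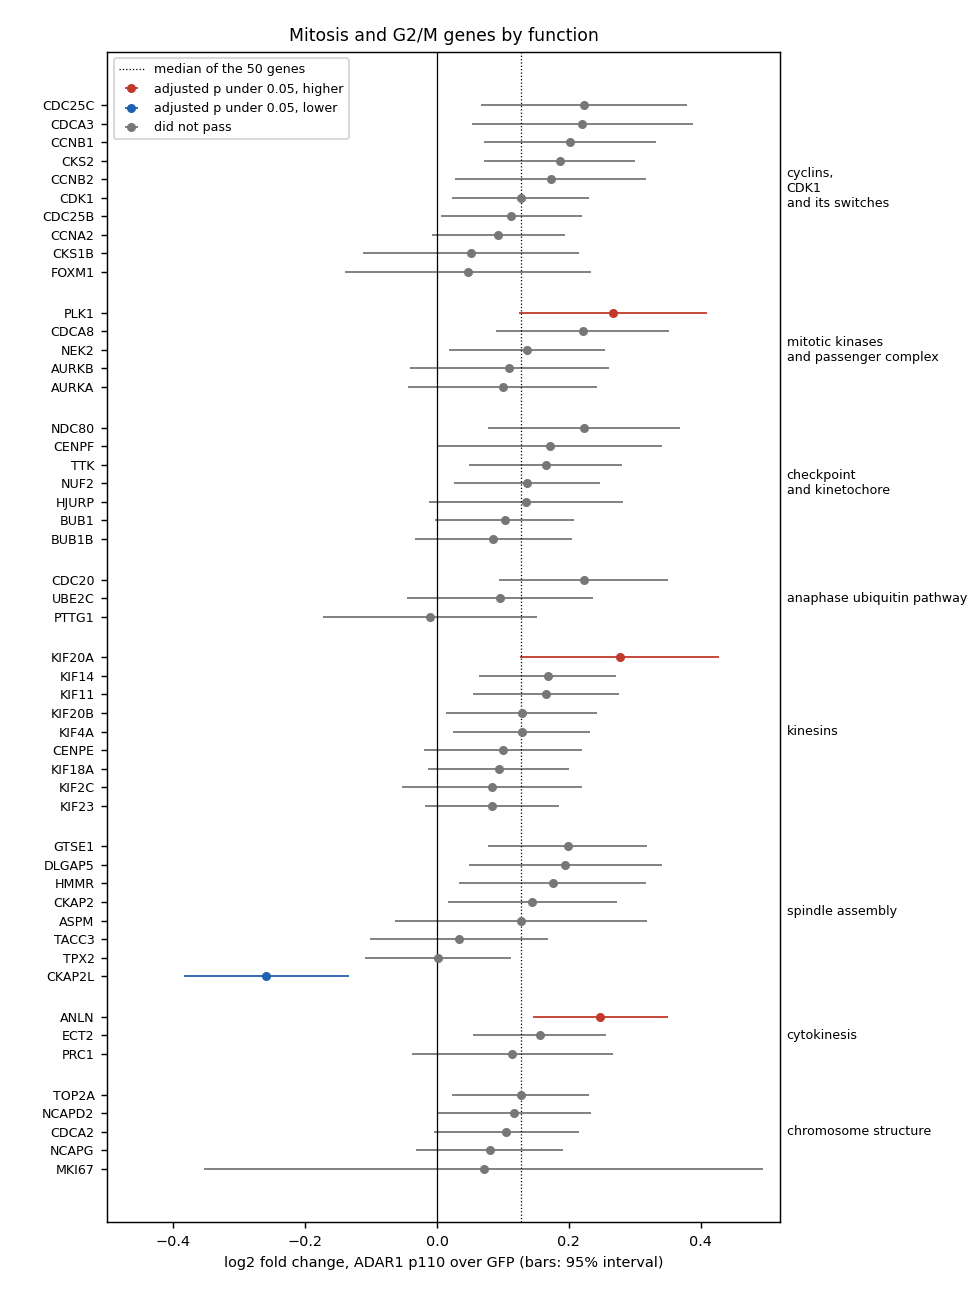
Log2 fold changes (ADAR1 p110 relative to GFP) for the 50 genes, in blocks by function, with 95% intervals as bars and 3 libraries per group. The dotted line marks the median of 0.13, the 3 genes that rose are in red and CKAP2L, the gene that fell, is in blue.

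ADAR, the gene carried by the virus, had 1011, 1015 and 991 CPM in the libraries with its virus and 257, 272 and 272 CPM in those with GFP, in order of replicate number. CPM is the count of a gene relative to the TMM-scaled total of its library. The groups differed in ADAR by 1.91 on the log2 scale (SE 0.049, edgeR adjusted p = 2.67e-09), so the labels and the transgene matched in all 6 libraries. Total counts per library ran from 72741235 to 99589278. ADAR1 p110 replicate 1 and GFP replicate 2 stood apart from the other 4 libraries on the second principal component (21.8% of variance). The members that passed the test depended on the libraries in the comparison. Without both of these libraries, 28 members rose and 1 fell, where 6.07% of tested genes rose and 7.32% fell. The genes that joined included the cyclins CCNB1 and CCNB2, CDK1, CDC20, NDC80 and TOP2A. Without ADAR1 p110 replicate 1 alone 18 rose, where 4.03% of tested genes rose. Leaving out ADAR1 p110 replicate 2 or GFP replicate 2 left 1 riser, ANLN in each case, where 0.766% and 1.25% of tested genes rose. Leaving out ADAR1 p110 replicate 3, GFP replicate 1 or GFP replicate 3 left none, where 0.567%, 0.520% and 0.761% of tested genes rose. In these 3 fits 13, 22 and 22 members were higher at an unadjusted p under 0.05, against 6.94%, 7.38% and 7.60% of tested genes. The median was between 0.12 and 0.14 in all of these fits.

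All 6 genes taken to define the cell line, VIM, AXL, CAV1, MSN, CD44 and SNAI2, were present in every library. VIM, the mesenchymal intermediate filament gene, had 2179 ± 181 CPM (SD, n = 3) in ADAR1 p110 and 1952 ± 57.9 CPM in GFP. Of the 6, CAV1 rose (log2 fold change 0.20, edgeR adjusted p = 0.0378) and the others did not pass, with CD44 at -0.26 and MSN at -0.08. In contrast, the luminal genes ESR1, PGR and FOXA1 had at most 6 counts in any library. ERBB2 was present, with means of 90.1 CPM in ADAR1 p110 and 85.8 CPM in GFP, and GATA3 had 3.61 and 3.54 CPM. The summed level of 8 luminal breast genes, mostly KRT8 and KRT18, was 1768 to 1882 CPM in ADAR1 p110 and 1489 to 1673 CPM in GFP. Sums of marker genes were taken relative to total counts, without the TMM scaling of the CPM of single genes. Of the 5 luminal genes tested 1, CDH1, rose, where 1.95% of tested genes rose. Among 5 leukocyte genes CD3E was at 0 counts, and their sum was 4.04 to 4.74 CPM in ADAR1 p110 and 4.26 to 5.36 CPM in GFP. Whether these markers bear on the mitotic genes was not tested.

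The cyclins, CDK1 and the proteins that switch it on were all slightly higher by estimate, and none of the 10 passed the test. The 10 log2 fold changes ran from 0.05 to 0.22 with a median of 0.15. At an unadjusted p under 0.05, 7 of the 10 were higher, where 9.21% of tested genes were. In 7 every ADAR1 p110 library lay above every GFP library, against 11.8% of tested genes. CCNB1, which encodes cyclin B1, the partner of CDK1 at mitotic entry (hg19 chromosome 5, 68462837 to 68474072), had 402, 446 and 454 CPM in ADAR1 p110 and 390, 360 and 383 CPM in GFP, given here and for later genes in order of replicate number. Every ADAR1 p110 library was above every GFP library, and replicate 1, the lowest of its group, was the one nearest to them. The log2 fold change was 0.20 (SE 0.059, edgeR adjusted p = 0.0858).

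CDC25C, the phosphatase that removes inhibitory phosphates from CDK1, was the least abundant of the 50 genes, at 19.3, 20.4 and 22.5 CPM in ADAR1 p110 and 18.2, 17.2 and 17.9 CPM in GFP. Its groups did not overlap, with a log2 fold change of 0.22 that did not pass (edgeR adjusted p = 0.111). CDC25C overlaps FAM53C on the other strand, which held 505% as many counts. Whether counting used strand was not given in the sources used here. Of the other members of this group, whose values were seen before they were chosen for mention, the CDK-binding subunit CKS2 had a log2 fold change of 0.19, CDK1 itself 0.13 and cyclin A2 (CCNA2) 0.09. CKS1B, the close relative of CKS2, had 0.05.

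FOXM1 encodes the forkhead factor that activates many of the other members. It had 85.3, 69.1 and 73.3 CPM in ADAR1 p110 and 73.6, 67.2 and 79.6 CPM in GFP. The groups overlapped, with a log2 fold change of 0.05 and a 95% interval from -0.14 to 0.23. The sign was negative in 3 of the 13 alternative fits, among them those without ADAR1 p110 replicate 1 or without GFP replicate 2. FOXM1 overlaps the opposite-strand gene RHNO1, whose counts came to 48.5% of its own.

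Among mitotic kinases and the chromosomal passenger complex, PLK1 rose and the other 4 genes did not pass, with log2 fold changes from 0.10 to 0.22. PLK1 encodes polo-like kinase 1, which acts in mitotic entry, spindle assembly and cytokinesis (hg19 chromosome 16, 23688977 to 23701688, plus strand). It had 64.3, 66.0 and 64.4 CPM in ADAR1 p110 and 55.9, 48.8 and 57.1 CPM in GFP. The 3 ADAR1 p110 libraries lay close together and above all GFP libraries, among which replicate 2 was lowest. The means were 64.9 ± 0.965 and 53.9 ± 4.45 CPM (SD, n = 3 each), and the log2 fold change was 0.27 (SE 0.065, edgeR adjusted p = 0.0403). The call was lost in 5 of the 6 fits without 1 library, all but the one without ADAR1 p110 replicate 1. Over all alternatives its adjusted p ran from 0.0028 to 0.136.

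AURKA, the centrosomal Aurora kinase and the most abundant of this group, had 263, 299 and 304 CPM in ADAR1 p110 and 274, 255 and 280 CPM in GFP. ADAR1 p110 replicate 1 lay within the GFP range, and the log2 fold change of 0.10 did not pass (edgeR adjusted p = 0.468). Its relative AURKB, the kinase of the passenger complex, had 0.11, and CDCA8, which encodes the borealin subunit of the same complex, had 0.22 (edgeR adjusted p = 0.0617). NEK2, a kinase of centrosome separation, had 0.14.

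None of the 7 genes of the spindle checkpoint and kinetochore passed, although all were higher by estimate, with a median log2 fold change of 0.14. NDC80 encodes the subunit that gives the outer kinetochore complex its name and that grips microtubules. It had 81.5, 90.2 and 95.2 CPM in ADAR1 p110 and 74.3, 74.0 and 80.5 CPM in GFP. The groups did not overlap, and the log2 fold change was 0.22 (SE 0.066, edgeR adjusted p = 0.0887). NUF2, its partner in the complex, had a log2 fold change of 0.14. CENPF, a large kinetochore-associated protein, had the highest CPM of this group, at 723, 656 and 602 in ADAR1 p110 and 532, 615 and 612 in GFP. One ADAR1 p110 library lay within the GFP range, and the log2 fold change was 0.17 (edgeR adjusted p = 0.263). The checkpoint kinases TTK and BUB1 and the pseudokinase BUB1B had log2 fold changes of 0.16, 0.10 and 0.09, and HJURP, the chaperone that loads the centromeric histone, had 0.13.

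Of the 3 genes acting through the anaphase-promoting complex, the ubiquitin ligase that ends mitosis, none passed, and their estimates differed. CDC20, its activator in mitosis, had 163, 174 and 172 CPM in ADAR1 p110 and 146, 136 and 154 CPM in GFP. The groups did not overlap, and at a log2 fold change of 0.22 the adjusted p was just above the threshold (SE 0.058, edgeR adjusted p = 0.0547). PTTG1 encodes securin, a substrate of the complex that holds separase inactive. It had 183, 214 and 215 CPM in ADAR1 p110 and 212, 189 and 215 CPM in GFP. The groups overlapped, with a log2 fold change of -0.01 and a 95% interval from -0.17 to 0.15. The sign turned positive in 5 of the 13 alternative fits, among them library size alone and the fit without ADAR1 p110 replicate 1. UBE2C, the ubiquitin-conjugating enzyme of the complex, lay between them at 0.10.

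**Figure D2:**
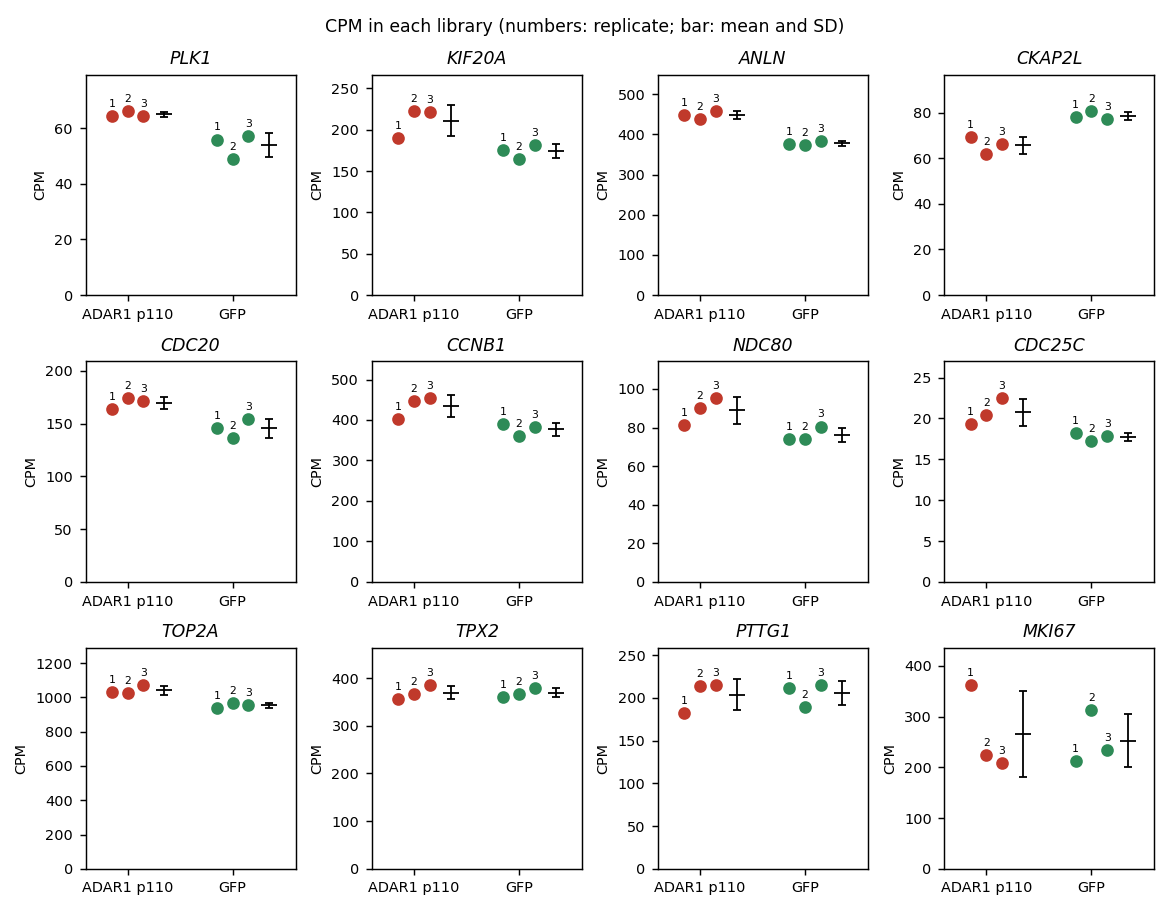
CPM in each library for 12 of the 50 genes on linear axes from 0, where red marks ADAR1 p110 and green marks GFP, with replicate numbers above the points, and the mean and SD (n = 3) beside each group. PLK1, KIF20A, ANLN and CKAP2L had groups that do not overlap, TPX2 and PTTG1 overlapped, and MKI67 was highest in ADAR1 p110 replicate 1 and GFP replicate 2.

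Kinesins are the motor proteins that build the spindle and the central spindle, and all 9 were higher by estimate. Their median log2 fold change was 0.13, and in 7 the ADAR1 p110 libraries all lay above GFP, against 11.8% of tested genes. KIF20A rose. It encodes a kinesin of the central spindle that acts in cytokinesis (hg19 chromosome 5, 137514408 to 137523404, plus strand). It had 190, 222 and 221 CPM in ADAR1 p110 and 176, 165 and 182 CPM in GFP. ADAR1 p110 replicate 1 lay nearer to the GFP libraries than to the other replicates of its group. The means were 211 ± 18.6 and 174 ± 8.40 CPM (SD, n = 3 each), and the log2 fold change was 0.28 (SE 0.068, edgeR adjusted p = 0.0437), the highest estimate of the 50. The call was lost in the same 5 fits as that of PLK1, with adjusted p between 4.88e-05 and 0.175 over all alternatives. KIF20A overlaps the opposite-strand genes BRD8 and CDC23, whose counts came to 56.3% and 42.8% of its own.

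CENPE, the kinetochore kinesin that moves chromosomes to the equator, had the highest CPM of the kinesins, at 232, 217 and 232 in ADAR1 p110 and 202, 222 and 212 in GFP. The groups overlapped in 1 library of each, and the log2 fold change of 0.10 did not pass (edgeR adjusted p = 0.363). The next estimates after KIF20A were those of KIF14, a kinesin of cytokinesis, at 0.17 (edgeR adjusted p = 0.0708), and KIF11, the motor that pushes spindle poles apart, at 0.17 (edgeR adjusted p = 0.0942). KIF23, the motor of the centralspindlin complex, and KIF2C, which depolymerises microtubules, had log2 fold changes of 0.08 each. KIF4A, KIF20B and KIF18A had 0.13, 0.13 and 0.09.

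Of the 8 spindle assembly genes 7 were higher by estimate, none of them past the test, and 1, CKAP2L, fell. CKAP2L encodes a microtubule-associated protein of the spindle poles (hg19 chromosome 2, 113494184 to 113522254, minus strand). It had 69.3, 61.7 and 66.1 CPM in ADAR1 p110 and 78.0, 80.6 and 77.2 CPM in GFP. Every ADAR1 p110 library was below every GFP library. The means were 65.7 ± 3.81 and 78.6 ± 1.76 CPM (SD, n = 3 each), and the log2 fold change was -0.26 (SE 0.057, edgeR adjusted p = 0.0257). The call was lost in 5 of the 6 fits without 1 library, with adjusted p between 0.000742 and 0.128 over all alternatives.

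CKAP2, the relative of CKAP2L, had a log2 fold change of 0.14 with a 95% interval from 0.02 to 0.27, above the whole interval of CKAP2L, which ran from -0.38 to -0.13. The difference between the 2 genes was not tested. TPX2, which activates AURKA on the spindle and was the most abundant of this group, had 357, 367 and 386 CPM in ADAR1 p110 and 361, 367 and 380 CPM in GFP. The GFP values lay within the range of the ADAR1 p110 values, and the interval of its log2 fold change ran from -0.11 to 0.11. TACC3, a spindle protein phosphorylated by AURKA, had a log2 fold change of 0.03. The remaining members, GTSE1, DLGAP5, HMMR and ASPM, had 0.20, 0.19, 0.18 and 0.13.

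Of the 3 cytokinesis genes ANLN rose. It encodes anillin, the scaffold of the contractile ring (hg19 chromosome 7, 36429415 to 36493400, plus strand). Its levels were 448, 438 and 457 CPM in ADAR1 p110 and 375, 373 and 384 CPM in GFP. The libraries of each group lay close together and far from the other group. The means were 448 ± 9.69 and 377 ± 5.79 CPM (SD, n = 3 each), and the log2 fold change was 0.25 (SE 0.046, edgeR adjusted p = 0.0112), the smallest p of the 50 genes. The call held without ADAR1 p110 replicate 1, ADAR1 p110 replicate 2 or GFP replicate 2 but was lost without ADAR1 p110 replicate 3, GFP replicate 1 or GFP replicate 3, with an adjusted p from 0.0506 to 0.0682 in those 3 fits. ECT2, the exchange factor that activates RhoA at the cleavage site, had groups apart and a log2 fold change of 0.16 (edgeR adjusted p = 0.0866), and PRC1, which bundles microtubules of the central spindle, had 0.11 with overlapping groups.

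Genes of chromosome structure were higher by estimate by 0.07 to 0.13 on the log2 scale, and none of the 5 passed. TOP2A, the topoisomerase that untangles sister chromatids, was the most abundant of the 50 genes, at 1029, 1024 and 1073 CPM in ADAR1 p110 and 938, 970 and 955 CPM in GFP. The groups did not overlap, and the log2 fold change was 0.13 (SE 0.047, edgeR adjusted p = 0.173). The condensin subunits NCAPD2 and NCAPG had 0.12 and 0.08, and CDCA2, which brings a phosphatase to chromatin, had 0.11. NCAPD2 overlaps AC006064.5 on the same strand and MRPL51 on the other, with 46.3% and 36.0% as many counts.

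MKI67, which encodes the proliferation antigen Ki-67, varied more between replicates than any other member. It had 362, 225 and 209 CPM in ADAR1 p110 and 212, 312 and 234 CPM in GFP. The highest library of each group was the one set apart on the second principal component, and the GFP values lay within the range of the ADAR1 p110 values. The log2 fold change of 0.07 had a 95% interval from -0.35 to 0.49, the widest of the 50, and was -0.22 without ADAR1 p110 replicate 1.

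**Figure D3:**
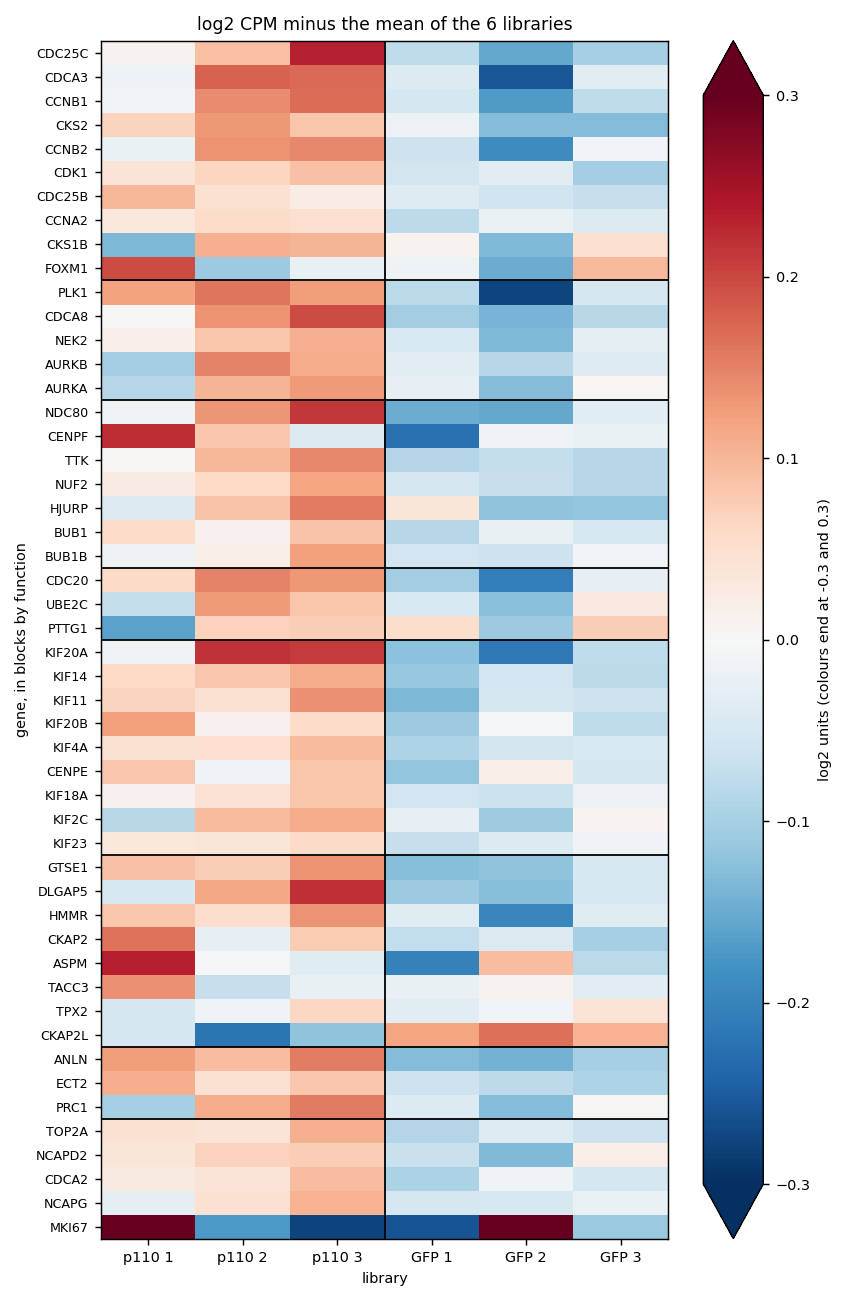
Log2 CPM of each of the 50 genes (rows, in blocks by function) in each of the 6 libraries (columns), minus the mean of the 6 libraries, with red above and blue below that mean. ADAR1 p110 replicate 3 was the highest library for 30 of 50 genes, CKAP2L ran opposite to its block, and MKI67 was high in ADAR1 p110 replicate 1 and GFP replicate 2.

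Between libraries, the members moved together by small amounts. The mean over the 50 members of log2 CPM minus the 6-library mean was 0.04, 0.06 and 0.09 with ADAR1 p110, by replicate number, and -0.07, -0.08 and -0.04 with GFP. The groups therefore did not overlap in the mean of the list. The members took 0.974% to 1.00% of all counts in ADAR1 p110 libraries and 0.872% to 0.900% in GFP libraries. ADAR1 p110 replicate 3 was the highest of the 6 libraries for 30 members, and GFP replicate 2 was the lowest for 22. Within ADAR1 p110 replicate 1 the means of the 8 function groups ran from -0.06 for the anaphase genes to 0.12 for chromosome structure, a mean that rests on MKI67, which alone had 0.52. Differences between function groups were not tested.

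In the 2 libraries set apart, how low or high a member lay varied with its listed gene length. ADAR1 p110 replicate 1 lay below both other replicates in 33 members and above both in 10, and GFP replicate 2 lay below both others in 25 and above both in 16. The largest excess was in MKI67, with 12807 bases in the table, at 0.74 log2 units over the mean of the other ADAR1 p110 replicates and 0.49 over the other GFP replicates. ASPM, the long spindle-pole gene with 10887 bases, had 0.26 and 0.23. Among shorter members, PTTG1, with 2013 bases, had -0.23 and -0.17, and CKS1B, with 2338 bases, had -0.24 and -0.16. UBE2C, with 1286 bases, had -0.18 and -0.12, but CKS2, the shortest with 613 bases, had only -0.04 and -0.06. Some longer members were also low, with -0.23 and -0.11 for PRC1 (5525 bases) and -0.19 and -0.22 for CDCA3 (5653 bases). The 2 libraries did not always go the same way, and FOXM1 (4899 bases) had 0.26 in ADAR1 p110 replicate 1 but -0.19 in GFP replicate 2.

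Across the 50 members, which share the same libraries and are not independent, log2 length and this difference correlated at Pearson's r = 0.59 (Spearman's rho 0.67) in ADAR1 p110 replicate 1 and r = 0.56 (rho 0.54) in GFP replicate 2. Without CKS2 and UBE2C, the 2 genes farthest from the median on the scale of log2 length, r was 0.70 and 0.65. MKI67, which had the largest excess in both libraries, was kept in these values, and the correlations with length were not computed without it. Over 18880 tested genes the same correlations were r = 0.05 (rho 0.17) and r = -0.06 (rho 0.05). The differences in the 2 libraries, which share no sample, correlated at r = 0.75 across members and at 0.14 across tested genes. Of tested genes 92.6% were less abundant than the median member, and tested genes of like abundance were not examined apart. Log2 length and the log2 fold change between the groups correlated at r = -0.09 across members. These relations were looked for after the values had been seen, and whether length bears on them was not tested.

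**Figure D4:**
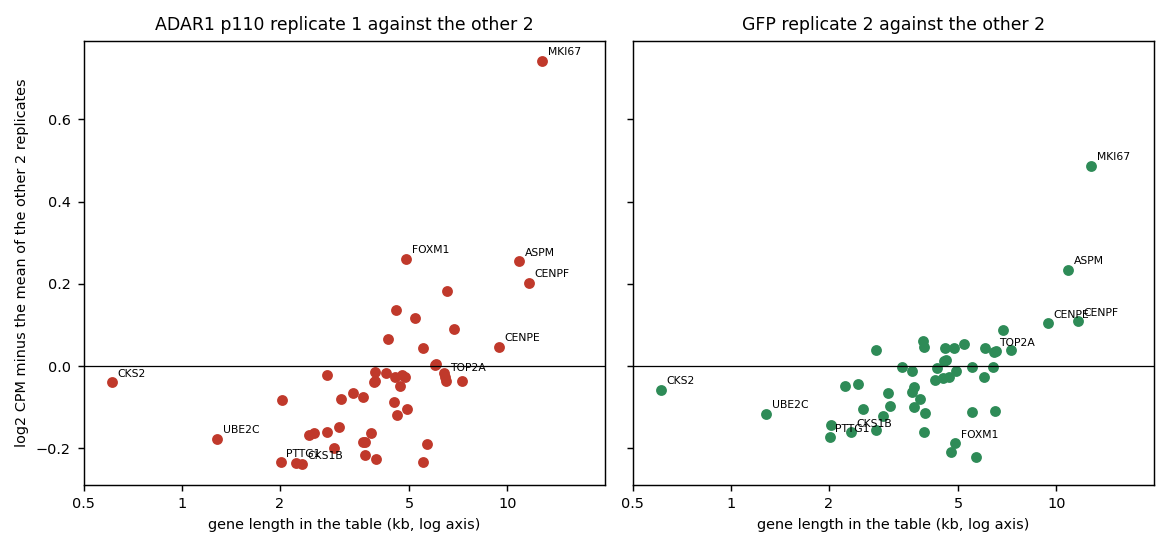
Log2 CPM in ADAR1 p110 replicate 1 (left) and GFP replicate 2 (right) minus the mean of the other 2 replicates of the group, against gene length in kb on a log axis, with 1 point for each of the 50 genes. Short members such as PTTG1 and CKS1B lie below 0 in both libraries, although CKS2, the shortest, lies above both of them. MKI67 and ASPM lie highest among the long ones.

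Compared per length, the mean level over the 6 libraries covered a 32.2-fold range among the members, from 6.32 CPM per kb for CDC25C to 204 CPM per kb for CKS2, with a median of 29.5 CPM per kb. Next to CKS2 stood CCNB1 at 159, TOP2A at 155 and UBE2C at 127 CPM per kb. The 3 genes that rose were spread over this range, with PLK1 at 12.5, KIF20A at 48.7 and ANLN at 68.6 CPM per kb, and CKAP2L, which fell, had 13.8 CPM per kb. Lengths are those of the count table, and how they were measured was not given in the sources used here. Across the 50 members, log2 CPM and the log2 fold change correlated at r = -0.08.

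Other genes of mitosis, taken from 6 lists of 117 tested genes that hold none of the 50, gave 9 higher and 1 lower, against the shares of 1.95% and 2.96% over all tested genes, with a median log2 fold change of 0.06. Of 35 further kinetochore and checkpoint genes 5 rose and none fell. CENPM, of the constitutive centromere network, had 21.3 ± 0.684 against 16.5 ± 0.844 CPM (SD, n = 3 each; log2 fold change 0.37, edgeR adjusted p = 0.0082), INCENP, the passenger scaffold, had 0.29 and CENPA, the centromeric histone, 0.34. Of the 15 genes named by rule that passed the test, CENPM was the only one whose call held in each of the 13 alternative fits. CENPA overlaps SLC35F6 on the same strand, with 152% as many counts.

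Of 24 further spindle and cytokinesis genes 3 rose and none fell, against 1.95% and 2.96% of tested genes. The 3 were ARHGAP11A (0.25), DEPDC1 (0.22) and PBK (0.22), and the list median of 0.14 was near that of the 50. The subunits of the anaphase-promoting complex (17 genes, median 0.01) and the cohesin and condensin genes (16 genes, median 0.05) gave no call. Of 11 genes that brake mitotic entry or control its phosphatase 1 rose and none fell, against 1.95% and 2.96% of tested genes. The riser was ARPP19, an inhibitor of that phosphatase when phosphorylated, with a log2 fold change of 0.34.

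Among 14 genes of the MuvB, DREAM, MYB and NF-Y factors none rose and 1 fell, against 1.95% and 2.96% of tested genes. The gene that fell was MYBL2, which encodes B-MYB. It had 58.4, 58.1 and 61.2 CPM in ADAR1 p110 and 77.2, 68.5 and 80.7 CPM in GFP. Every ADAR1 p110 library lay below every GFP library, and the log2 fold change was -0.35 (SE 0.066, edgeR adjusted p = 0.0116). This direction was opposite to that of most of the 50 members. Its call was lost without ADAR1 p110 replicate 2, GFP replicate 1 or GFP replicate 3. In G1/S and DNA replication, which precedes mitosis, 5 of 53 genes rose and 1 fell, against 1.95% and 2.96% of tested genes. The list median was 0.08. GINS1, of the replicative helicase, had 40.2, 39.7 and 40.1 CPM against 31.8, 33.4 and 32.9 CPM (log2 fold change 0.29, edgeR adjusted p = 0.00934), the transcription factor gene E2F1 had 0.28 and CDC25A, the phosphatase of the G1/S step, had -0.29. Whether the mitotic and G1/S lists differ was not tested.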

How the data were processed

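Total RNA from 6 libraries of transduced MDA-MB-231 cells was sequenced after preparation with a stranded kit, per the labels' protocols. The authors deposited raw counts per gene, and, per the file headers, the name, position, strand and length of each gene, on hg19 by the submitters' processing notes. The submitters' processing notes name STAR 2.5.2a, featureCounts 1.5.1, R 3.1 and DESeq2 1.4.5. How strand and reads with several alignments were handled is not given in the sources used here, so reads of overlapping genes may be shared.

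Genes were filtered by filterByExpr (minimum count 10), scaled by TMM and tested with edgeR 4.0.16 (glmQLFit and glmQLFTest in R 4.3.3), group being the sole term of the model, and p-values were adjusted over all 18899 tested genes. The SE is the log2 fold change divided by the square root of F, and the 95% interval uses the total degrees of freedom of the fit. The test was checked on simulated data. CPM depend on TMM, apart from the sums of marker genes and the limit for a count of 0, which used total counts. A count of 0 allows up to 3 counts, or 0.0301 to 0.0412 CPM, by counting error alone. Replicates differed by more than sampling noise (chi-square of 8.78 to 40.8 per degree of freedom).

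Groups came from the sample titles. The members and lists were chosen with earlier results of these data known, so the shift of the list is no independent evidence. Genes named by rule were the called members, in each of 8 function groups the member with the highest CPM and the one with the largest change, and up to 3 called genes per other list by smallest p. Values of other members were chosen for mention after they were seen. PECAM1 was not matched. Alternatives were DESeq2 size factors, library size alone, no filter, DESeq2 1.42.0 without that filter, limma-voom (limma 3.58.1), a replicate block, leaving out each library, and leaving out the 2 libraries set apart. Promoters are those of RefSeq on GRCh38.p14, a build other than that of the counts, and were matched by symbol only. Figures were drawn with matplotlib 3.10.9.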

Additional observations from a re-analysis of the deposited data

How the results depend on the processing

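The number of members that rose, 3 in the main analysis, was 9 with library size alone, 10 without a low-count filter and 9 with the DESeq2 Wald test, where 2.70%, 2.18% and 3.65% of genes with an adjusted p rose. It ran from 0 to 18 when 1 library was left out, where 0.520% to 4.03% of tested genes rose. It was 28 when ADAR1 p110 replicate 1 and GFP replicate 2, the libraries set apart, were both left out (6.07% of tested genes). The number that fell, 1, ran from 0 to 1 without 1 library, where 1.54% to 5.16% of tested genes fell. The other lists, with 16 called genes in all, gave 1 to 30 without 1 library and 45 without those 2. With the replicate number as a block, 0 members rose, 0 fell and 3 genes of the other lists were called, where 0.926% of tested genes rose, and 18 members were higher at an unadjusted p under 0.05 (7.65% of tested genes). Deviations of same-numbered libraries correlated at -0.109, -0.0296 and 0.0433, so the numbers were not taken to pair the samples. The median log2 fold change of the members stayed between 0.12 and 0.15. Where counted, groups were apart in 31 to 35 members with every library kept, 33 to 42 without 1 library and 44 without those 2. In the main fit 32 were apart, where 11.8% of tested genes had all ADAR1 p110 libraries above and 12.2% below. Groups come apart more easily with fewer libraries, and shares of tested genes were not computed for the other fits.

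Over 61 genes in 13 alternatives, 650 of 793 values kept their direction and side of the threshold, 68 lost the call, 60 gained one and 15 turned sign, all 15 in 5 members that did not pass. With 1 library left out the log2 fold change ran from -0.046 to 0.11 for FOXM1, from -0.061 to 0.063 for PTTG1, from -0.030 to 0.078 for TACC3, from -0.026 to 0.027 for TPX2 and from -0.22 to 0.25 for MKI67. With both set-apart libraries out it was -0.10 for FOXM1, 0.010 for PTTG1, -0.015 for TACC3 and -0.037 for MKI67, and with library size alone it was 0.013 for PTTG1. The cause of these changes was not tested. Standard errors of the members ran from 0.046 to 0.19 log2 units beside a median difference of 0.13.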
